A study of Homo sapiens with 8 samples.

Results

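The DNA replication licensing and fork genes are 48 genes, of 60282 listed, whose products mark origins, load and activate the replicative helicase, copy DNA and protect the moving fork. They were found by gene name, from a list drawn up with earlier results of these data known, and all 48 passed the filter on low expression that left 14073 genes for testing. They were measured in SK-UT-1, an established human uterine leiomyosarcoma (uLMS) cell line, by RNA-sequencing of total RNA. One group of 4 libraries came from cells treated with 5 µM TP-472, an inhibitor of the bromodomain proteins BRD9 and BRD7, for 48 h, and the other group of 4 came from cells that received the vehicle, DMSO. All libraries are of this 1 cell line, grown in the same medium. The estimated counts summed to between 32574672 (vehicle replicate 3) and 38545464 (TP-472 replicate 1) per library, and the lowest count of any of the 48 genes was 365, for TIPIN in vehicle replicate 3. The methods speak of biological replicates for the experiments in general, and the sample labels do not say whether these libraries came from separate cultures. If they did not, the p-values measure the spread between these libraries, which may be technical.

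In late mitosis and G1 phase, the origin recognition complex (ORC) binds replication origins, and with CDC6 and CDT1 it loads the ring-shaped MCM2-7 helicase, a step called licensing. At the onset of S phase, CDC45 and the GINS complex join MCM2-7 to form the active CMG helicase, polymerases epsilon and delta extend the DNA strands that polymerase alpha-primase starts, and the sliding clamp PCNA holds the polymerases in place. CLSPN, TIMELESS and TIPIN travel with the fork and link it to the S-phase checkpoint. Many of these genes are switched on late in G1 phase by the E2F transcription factors. In bulk RNA, fewer cells in S phase and less RNA per cell cannot be told apart.

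Vehicle replicate 3 stood apart from the other vehicle libraries over the whole transcriptome, and values without it are therefore given beside those from all 8 libraries. Its level was more than 1.5-fold away from the mean of the other vehicle libraries in 48.0% of all genes tested, against 2.84% to 11.7% for vehicle replicates 1, 2 and 4 and 0.583% to 2.12% for the TP-472 libraries. The labels name no batch that sets it apart.

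The label of the cells was checked against marker genes, with levels in CPM (counts relative to the library total, scaled by the TMM method). Of the smooth muscle markers, CALD1 (178 to 211 CPM) and ACTA2 (146 to 177 CPM in vehicle and 105 to 112 CPM with TP-472) were abundant, and CNN1 stayed below 2 CPM. ACTA2 fell with no overlap, by less than 1.5-fold with all 8 libraries (log2 fold change −0.55, edgeR adjusted p = 0.00426). Without vehicle replicate 3 the fall was more than 1.5-fold (−0.59, edgeR adjusted p = 0.000138). TAGLN (27.2 to 34.3 CPM in vehicle and 18.7 to 23.0 CPM with TP-472, log2 fold change −0.67), DES (3.01 to 3.49 and 0.396 to 0.777 CPM, −2.36) and LMOD1 (1.47 to 3.54 and 0.472 to 0.874 CPM, −1.84) were lower with TP-472 by more than 1.5-fold at an edgeR adjusted p-value under 0.05. SMTN was at 61.2, 53.8, 158 and 52.9 CPM in vehicle and 46.5 to 55.7 CPM with TP-472. MYH11, a defining marker of differentiated smooth muscle, had 0, 0, 0 and 1 counts in the vehicle libraries and 7 to 10 counts in the TP-472 libraries. The 8 smooth muscle markers summed to 439, 479, 524 and 481 CPM in vehicle and to 379.8, 378, 373 and 371 CPM with TP-472. The immune markers CD3E (0 counts in every library) and PTPRC (at most 1 count) and the endothelial marker KDR (at most 3 counts) were at or near 0. The endothelial list of 4 genes, led by VWF, summed to 0.0554 to 0.144 CPM in vehicle and 0.414 to 0.581 CPM with TP-472. The epithelial list of 5 genes, led by KRT18, summed to 17.5 to 23.1 CPM in vehicle and 20.4 to 26.8 CPM with TP-472, and the immune list of 5 genes, led by CD68, to 7.31 to 8.66 and 10.4 to 13.9 CPM. Of the epithelial genes, KRT18 (6.18 to 8.25 CPM in vehicle and 13.8 to 17.4 CPM with TP-472) was a higher and KRT19 (7.30 to 11.4 and 3.49 to 6.09 CPM, log2 fold change −0.85) a lower gene at an edgeR adjusted p-value under 0.05 and more than 1.5-fold. EPCAM (0.632 to 0.84 and 0.207 to 0.31 CPM) was lower in every TP-472 library than in every vehicle library. CDH1 (0.197 to 0.748 and 0.305 to 0.673 CPM) overlapped between the groups. Both were under the filter on low expression. With a GC offset, which takes out how counts vary with GC content in a library, TAGLN (−0.41) and KRT19 (−0.48) were under 1.5-fold. With the same offset KRT8 (0.78) and CD68 (0.66) were higher by more than 1.5-fold at an edgeR adjusted p-value under 0.05. The part of these small sums in the results was not tested.

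To see what the genes share in sequence, the RefSeq promoters (GRCh38.p14, 250 bases before to 50 after each start) were searched on both strands for 4 words of the E2F type, TTTCCCGC, TTTGGCGC, TTTCGCGC and TTTGCCGC. Of the 48 genes, 42 had an entry, with 53 windows among them. At least 1 such word was in 21 of the 53 windows (39.6%), from 21 of the 42 genes, against 3.31% of all 35116 windows. The word CCAAT was in 58.5% of the genes' windows and 34.6% of all windows, and a word of the type found in late cell cycle promoters (TTTGAA or TTCGAA) in 3.77% and 16.4%. A match of letters is a description of the window and does not show a site that is used. For 3 genes a stretch upstream of the annotated gene is printed, 5′ to 3′ in the direction of the gene. The E2F-type words are in capitals. MCM6 (chr2:135876444-135876603, minus strand) is shown because it holds the words in overlapping pairs at more than 1 place, PCNA (chr20:5126627-5126782, minus strand) because it had the highest level per length of all 48 genes, and ORC5 (chr7:104208048-104208173, minus strand) because it had the largest log2 fold change of the 48 genes with all 8 libraries and none of the words.
MCM6: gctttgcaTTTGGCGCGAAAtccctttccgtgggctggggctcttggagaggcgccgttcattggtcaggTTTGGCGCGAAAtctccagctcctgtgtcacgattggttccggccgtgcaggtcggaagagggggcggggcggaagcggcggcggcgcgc
PCNA: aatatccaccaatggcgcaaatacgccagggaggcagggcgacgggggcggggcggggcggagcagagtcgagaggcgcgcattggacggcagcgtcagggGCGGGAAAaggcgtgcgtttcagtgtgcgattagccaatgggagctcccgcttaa
ORC5: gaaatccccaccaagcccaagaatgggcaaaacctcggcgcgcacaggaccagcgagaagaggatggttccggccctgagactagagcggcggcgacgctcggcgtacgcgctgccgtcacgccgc
Among the other genes that were differentially expressed, CDC6 and TIPIN had such a word in a window, TIMELESS had none and RPA2 had no entry.

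Few of the replication genes were differentially expressed with TP-472. A gene was counted as differentially expressed (DEG) at an adjusted p-value under 0.05 from edgeR's quasi-likelihood F test and a change over 1.5-fold. This held for 5 of the 48 genes (10.4%), where 26.9% of all 14073 genes tested were DEGs. The genes tested were not matched to the 48 for level. The median standard error of the log2 fold change was 0.132 for the 48 genes and 0.185 for all genes tested. ORC5, CDC6, RPA2 and TIPIN were higher with TP-472, and TIMELESS was lower. Among all genes 12.0% were higher DEGs and 14.9% lower DEGs. Without vehicle replicate 3 there were 4 DEGs (8.33%, against 25.5% of all genes), namely 3 higher (12.0% of all genes) and 1 lower (13.4%). TIPIN was then under 1.5-fold, and the other 4 genes were shared between the fits.

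At an adjusted p-value under 0.05 with no limit on the fold change, 12 of the 48 genes rose (17.2% of all genes did) and 3 fell (19.1%). Together these were 31.2% of the 48, where 36.3% of all genes tested passed. When vehicle replicate 3 was left out, 18 rose (28.6% of all genes) and 10 fell (28.4%), together 58.3% against 57.0% of all genes, and all 15 genes of the first count were among these 28. All TP-472 libraries were above all vehicle libraries in 18 of the 48 genes (23.8% of all genes) and below them in 6 (21.6%), together 24 genes, where 45.4% of all genes did not overlap. With the other 7 libraries, 18 genes were above (29.8% of all genes) and 9 below (28.7%), where 58.5% of all genes did not overlap. The median log2 fold change of the 48 genes was 0.17, against −0.03 for all genes tested, and 0.06 against 0.00 without vehicle replicate 3. The order turned when that library was left out under DESeq2 (0.05 for the 48 genes against 0.17 for all genes) or with no low-count filter (0.03 against 0.16), both of which test more genes. The median size of the log2 fold change, whatever its sign, was 0.33, against 0.40 for all genes (0.24 and 0.33 without that library). The levels of the 48 genes summed to 4901, 5174, 4874 and 5185 CPM in the vehicle libraries and to 5320.2, 5377, 5399 and 5264 CPM in the TP-472 libraries, so that the TP-472 libraries had the higher sums with no overlap. Such a sum follows the abundant genes most, among them RRM2 (means of 325 CPM in vehicle and 433 CPM with TP-472), MCM7 (339 and 412 CPM) and PCNA (228 and 316 CPM). Of these, only RRM2 passed the adjusted p-value. The log2 fold change was above 0 in 29 of the 48 genes and not in the rest.

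**Figure D1:**
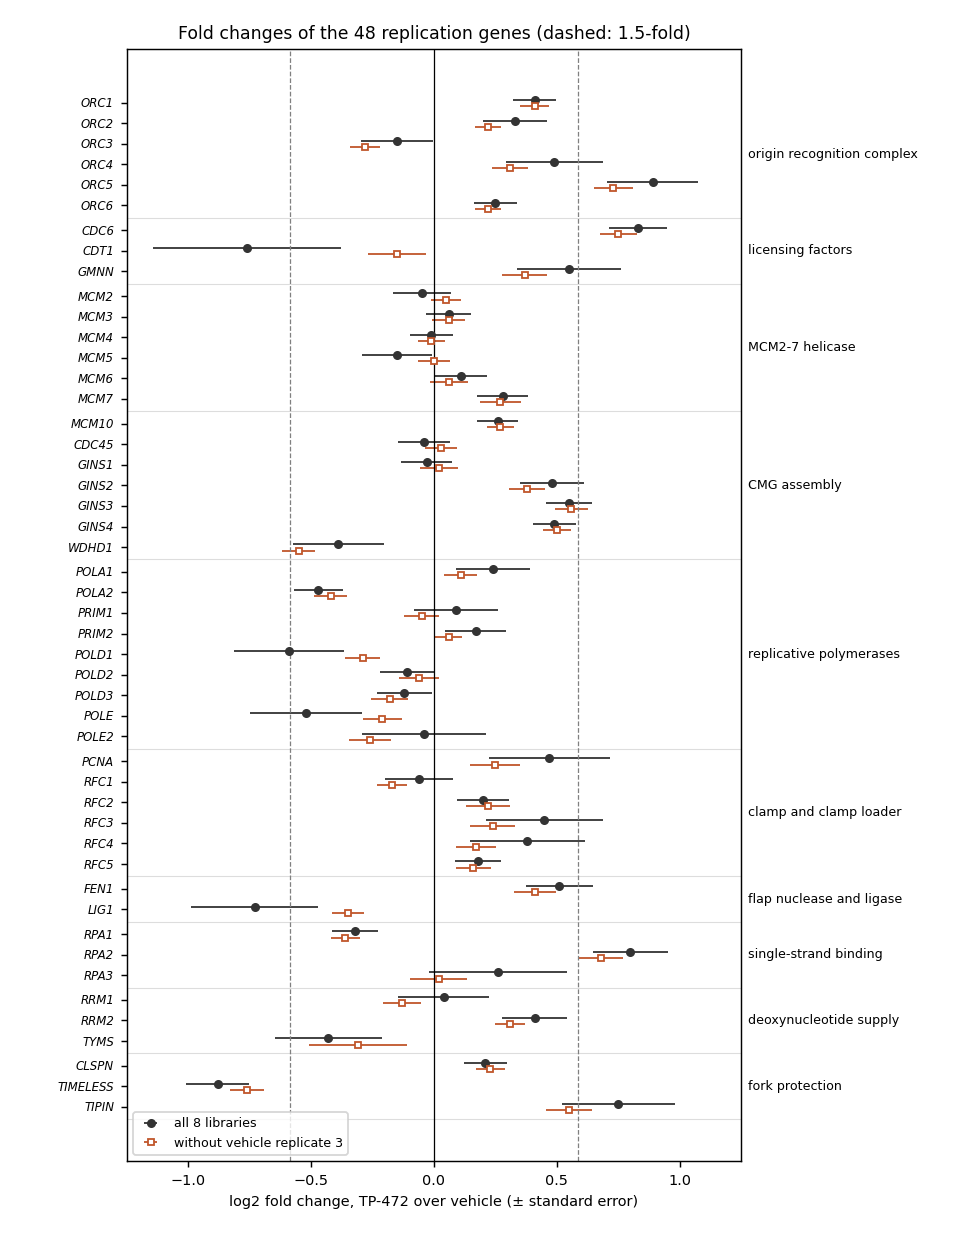
Log2 fold change of TP-472 over vehicle (x axis) with its standard error for each of the 48 genes, ordered by role, from all 8 libraries (filled circles) and without vehicle replicate 3 (open squares), where dashed lines mark a 1.5-fold change. The values ran from −0.88 (TIMELESS) to 0.89 (ORC5), and the standard errors were shorter without vehicle replicate 3, with a median of 0.072 in place of 0.132.

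In the TMM-scaled edgeR fit, 3 of the 6 genes of the origin recognition complex rose and none fell at an adjusted p-value under 0.05. Among all genes tested, 17.2% rose. With all 8 libraries ORC1, ORC5 and ORC6 passed the adjusted p-value, and ORC2 (log2 fold change 0.33, edgeR adjusted p = 0.0747) and ORC4 (0.49, edgeR adjusted p = 0.0807) did not pass although all their TP-472 libraries were above all vehicle libraries. ORC3 was the exception, with −0.15 (edgeR adjusted p = 0.436). All 6 passed without vehicle replicate 3, in a fit in which 57.0% of all genes passed. ORC1, ORC2 (0.22), ORC4 (0.31), ORC5 and ORC6 (0.22) were higher and ORC3 (−0.28) was lower.

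ORC5 (ENSG00000164815.11, chromosome 7 from 104126341 to 104208047), whose product belongs to the ATP-binding core of the complex, was measured at 25.8, 32.0, 16.7 and 29.3 CPM in vehicle replicates 1 to 4 and at 47.4, 50.3, 47.9 and 47.0 CPM in TP-472 replicates 1 to 4. All TP-472 libraries were above all vehicle libraries, and vehicle replicate 3 was the lowest. The increase was 1.85-fold, or 0.89 on the log2 scale (standard error, SE, 0.185, edgeR adjusted p = 0.00673). It was 1.66-fold when vehicle replicate 3 was left out, or 0.73 on the log2 scale (edgeR adjusted p = 5.86e-05, with 2.94e-07 to 0.0245 across the single alternatives, which change 1 choice at a time or join the GC offset to a replicate block). ORC1 (ENSG00000085840.13), the largest subunit and the one with the highest level per length in the complex (18.0 CPM per kb of exon), was at 46.2, 48.7, 49.2 and 51.8 CPM in vehicle and 65.7, 64.0, 63.6 and 66.6 CPM with TP-472. Here vehicle replicate 3 lay among the others, and the groups did not overlap. The log2 fold change of ORC1 was 0.41 with and without that library (SE 0.0872 and edgeR adjusted p = 0.00773 with all 8 libraries). With a replicate block its adjusted p was 0.0545. The adjusted p of ORC6 was 0.047 with all 8 libraries, 0.163 with the block and 0.0912 under total-count scaling, and at most 0.235 over the single alternatives.

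Of the 3 licensing factors, CDC6 rose at an adjusted p-value under 0.05, where 17.2% of all genes tested rose. CDC6 (ENSG00000094804.12, chromosome 17 from 40287633 to 40304657) is the ATPase that joins ORC to load the helicase. Its level was 44.7, 52.4, 40.1 and 54.7 CPM in vehicle and 83.9, 86.0, 87.7 and 82.6 CPM with TP-472. The groups did not overlap, and the TP-472 libraries lay close to each other. The increase was 1.77-fold, with a log2 fold change of 0.83 (SE 0.118, edgeR adjusted p = 0.00123), and 0.75 without vehicle replicate 3 (edgeR adjusted p = 3.94e-05, with 7.26e-08 to 0.0115 across the single alternatives).

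GMNN (ENSG00000112312.10) encodes geminin, which binds CDT1 and blocks a new round of licensing in S and G2 phase. It was at 36.2, 46.7, 21.7 and 43.4 CPM in vehicle and 50.3, 56.0, 57.8 and 52.9 CPM with TP-472. The groups did not overlap, but the wide spread of the vehicle libraries left its log2 fold change of 0.55 at a standard error of 0.213 (edgeR adjusted p = 0.0698). The value was 0.37 without that library (edgeR adjusted p = 0.00725, with 0.00117 to 0.153 across the single alternatives). CDT1 itself is described with vehicle replicate 3 further on.

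The MCM2-7 helicase, the core of licensing, gave no gene that passed the adjusted p-value with all 8 libraries in the TMM-scaled fit, where 36.3% of all genes tested passed. The log2 fold changes ran from −0.15 (MCM5) to 0.28 (MCM7), and the median was 0.02. MCM4 had even levels, with 307 to 319 CPM in vehicle and 307 to 317 CPM with TP-472. For MCM4 the log2 fold change was −0.01 with a standard error of 0.0861, and −0.01 without vehicle replicate 3. The sum of the 6 genes was 1323, 1403, 1485 and 1433 CPM in vehicle and 1479, 1509, 1498 and 1423 CPM with TP-472, with overlapping groups. MCM7 (ENSG00000166508.18, 85.6 CPM per kb) had the highest level per length of the 6, at 303, 356, 332 and 364 CPM in vehicle and 412, 436, 423 and 376 CPM with TP-472. All its TP-472 libraries were above all vehicle libraries. Its log2 fold change of 0.28 (SE 0.105) missed the threshold (edgeR adjusted p = 0.0633) and was 0.27 without vehicle replicate 3 (edgeR adjusted p = 0.0202, with 0.000985 to 0.238 across the single alternatives). With the GC offset MCM7 had 0.48 (edgeR adjusted p = 0.0192) and MCM2 went from −0.05 to 0.24 (edgeR adjusted p = 0.0373, with 0.0373 to 0.901 across the single alternatives), so that both passed. MCM7 shares 8.94% of its exon bases with AP4M1 on the opposite strand, whose counts were 6.32% of those of MCM7.

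Among the 7 genes that turn the loaded helicase into the CMG complex, MCM10, GINS2, GINS3 and GINS4 rose at an adjusted p-value under 0.05, by less than 1.5-fold each, where 17.2% of all genes tested rose. GINS3 was the lowest of the 48 genes per length (4.11 CPM per kb) and had tight replicates, at 16.4, 16.7, 17.6 and 17.5 CPM in vehicle and 24.2, 24.5, 25.6 and 25.3 CPM with TP-472. The groups did not overlap and vehicle replicate 3 was close to the others. The change was 0.55 on the log2 scale (SE 0.0951, edgeR adjusted p = 0.00303), and GINS4 had 0.49 (edgeR adjusted p = 0.00333) and GINS2 0.48 (edgeR adjusted p = 0.0201). GINS1, the remaining subunit of the 4-part GINS complex, had −0.03 (edgeR adjusted p = 0.837), and CDC45, the other CMG partner, had −0.04 (edgeR adjusted p = 0.799). The values without vehicle replicate 3 were 0.56 for GINS3, 0.50 for GINS4, 0.38 for GINS2, 0.02 for GINS1 and 0.03 for CDC45. With a replicate block the adjusted p of GINS2 was 0.0505, in a range of 5.34e-05 to 0.0626 over the single alternatives.

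MCM10 (ENSG00000065328.16), which is needed to activate the assembled helicase, was at 101, 107, 107 and 102 CPM in vehicle and 129, 125, 121 and 124 CPM with TP-472. No library of one group reached the other. MCM10 rose by a log2 fold change of 0.26 (SE 0.0843, edgeR adjusted p = 0.0392) and 0.27 without vehicle replicate 3. Its adjusted p missed the threshold under total-count scaling (0.0828), no low-count filter (0.211), filterByExpr (0.0545), the replicate block (0.159) and the GC offset (0.165), and with any other library left out (0.0664 to 0.128). WDHD1, the AND-1 protein that connects polymerase alpha to the helicase, was at 113, 133, 69.3 and 125 CPM in vehicle and 84.2, 81.8, 87.2 and 83.6 CPM with TP-472. Vehicle replicate 3 alone was below the TP-472 libraries, and the other vehicle libraries were above them. For WDHD1 the log2 fold change was −0.39 (edgeR adjusted p = 0.128) with all libraries and −0.55 without vehicle replicate 3 (edgeR adjusted p = 0.000114, with 4.02e-07 to 0.265 across the single alternatives).

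In the TMM-scaled edgeR fit, the 9 genes of the replicative polymerases and the primase gave 1 decrease and no increase that passed. Among all genes tested, 19.1% fell and 17.2% rose. POLA2, the accessory subunit of polymerase alpha, was at 58.6, 59.2, 69.2 and 63.3 CPM in vehicle and 45.5, 49.0, 42.5 and 43.5 CPM with TP-472, with no overlap. Its log2 fold change was −0.47 (SE 0.101, edgeR adjusted p = 0.00754) and −0.42 without vehicle replicate 3. Of its exon bases, 35.1% are shared with AP000944.2 on the same strand, whose counts were 27.9% of those of POLA2, so the split of reads between these genes is uncertain. POLD2 (ENSG00000106628.10), an accessory subunit of polymerase delta and the highest of the 9 per length (32.0 CPM per kb), was at 110.1, 120.4, 136 and 126 CPM in vehicle and 115, 118, 122 and 99.3 CPM with TP-472. The groups overlapped, and the log2 fold change was −0.11 (SE 0.109, edgeR adjusted p = 0.426), −0.06 without vehicle replicate 3 and 0.18 with the GC offset. The sum of the 9 genes was 719.6, 720.1, 901 and 732 CPM in vehicle and 667, 669, 663 and 642 CPM with TP-472. Each TP-472 library had a lower sum than each vehicle library, and vehicle replicate 3 was far above the rest. Without it POLA2, POLD1, POLE and POLE2 passed and fell, with log2 fold changes from −0.42 to −0.21, in a fit in which 28.4% of all genes fell.

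None of the 6 genes of the clamp and the clamp loader passed with all 8 libraries in the TMM-scaled edgeR fit. In this fit 36.3% of all genes tested passed. PCNA (ENSG00000132646.11, chromosome 20 from 5114953 to 5126626), the sliding clamp, had the highest level per length of all 48 genes, at 155 CPM per kb in vehicle and 215 CPM per kb with TP-472. It was measured at 220, 286, 120.1 and 288 CPM in vehicle and 305, 334, 332 and 292 CPM with TP-472. All TP-472 libraries were above all vehicle libraries, by a small margin for TP-472 replicate 4, and vehicle replicate 3 had less than any other library. The log2 fold change was 0.47 with a standard error of 0.246 (edgeR adjusted p = 0.16), and 0.25 without vehicle replicate 3 (edgeR adjusted p = 0.0567, with 0.0223 to 0.274 across the single alternatives). RFC1 to RFC5, the clamp loader that opens and closes PCNA, had log2 fold changes from −0.06 (RFC1) to 0.45 (RFC3). RFC3 (0.24) and RFC1 (−0.17) passed without vehicle replicate 3, in opposite directions (33.3% of the 6, against 57.0% of all genes). With all 8 libraries and the GC offset RFC1 (−0.17), RFC2 (0.29) and RFC3 (0.38) passed, as did 7501 of all 14073 genes tested. Under limma-voom with quality weights PCNA (0.18), RFC1 (−0.21), RFC2 (0.19) and RFC3 (0.20) passed, as did 9606 of all genes.

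FEN1 and LIG1 finish the lagging strand, FEN1 by cutting flaps and LIG1 by sealing nicks. FEN1 (ENSG00000168496.4) rose from 70.8, 85.7, 59.6 and 87.7 CPM in vehicle to 109.6, 113, 110.3 and 99.0 CPM with TP-472, with no overlap. Its log2 fold change was 0.51 (SE 0.136, edgeR adjusted p = 0.0199), and 0.41 without vehicle replicate 3. The adjusted p of FEN1 missed the threshold with a replicate block (0.0537), without vehicle replicate 1 (0.0548) and without TP-472 replicate 1, 2 or 3 (0.0585 to 0.0611). LIG1 was at 67.3, 64.3, 142 and 64.1 CPM in vehicle and 55.2, 51.6, 50.1 and 47.4 CPM with TP-472. Each TP-472 library was lower than each vehicle library, and vehicle replicate 3 had more than any other. LIG1 had a log2 fold change of −0.73 (SE 0.26) that missed the threshold (edgeR adjusted p = 0.0546), and one of −0.35 that passed it without vehicle replicate 3 (edgeR adjusted p = 0.00134, with 0.000293 to 0.122 across the single alternatives).

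The subunits of replication protein A (RPA), which coats single-stranded DNA at the fork, went in different directions. At an adjusted p-value under 0.05 RPA2 rose and RPA1 fell, where 17.2% of all genes tested rose and 19.1% fell. RPA2 (ENSG00000117748.10, chromosome 1 from 27891524 to 27914746) was at 49.2, 59.9, 38.0 and 59.5 CPM in vehicle and 86.6, 95.3, 95.0 and 82.2 CPM with TP-472. All TP-472 libraries were above all vehicle libraries. RPA2 rose 1.74-fold, with a log2 fold change of 0.80 (SE 0.154, edgeR adjusted p = 0.00488), and 1.60-fold without vehicle replicate 3 (log2 fold change 0.68, edgeR adjusted p = 0.000187, with 6.5e-07 to 0.0200 across the single alternatives). RPA1, the large subunit that carries most of the DNA binding, fell from 147, 135, 123 and 133 CPM to 109, 105, 106 and 112 CPM, with no overlap. The decrease was −0.32 on the log2 scale (SE 0.0932, edgeR adjusted p = 0.0281), and −0.36 without vehicle replicate 3. With a replicate block the adjusted p of RPA1 was 0.109, in a range of 1.31e-05 to 0.125 over the single alternatives. For RPA3, the smallest subunit, the vehicle libraries ran from 15.7 to 45.6 CPM, and its log2 fold change of 0.26 did not pass (edgeR adjusted p = 0.49) and was 0.02 without vehicle replicate 3.

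Of the genes that supply deoxynucleotides, RRM2 rose at an adjusted p-value under 0.05, where 17.2% of all genes tested rose. RRM2 (ENSG00000171848.15), the regulated subunit of ribonucleotide reductase and the highest of these 3 genes per length (71.1 CPM per kb), was at 347, 346, 248 and 357 CPM in vehicle and 425, 422, 423 and 460.4 CPM with TP-472. The groups did not overlap. The log2 fold change was 0.41 (SE 0.133, edgeR adjusted p = 0.0375), and 0.31 without vehicle replicate 3. The adjusted p of RRM2 missed the threshold with no low-count filter (0.12), with a replicate block (0.078), without vehicle replicate 1 (0.0595) or 2 (0.0505) and without any 1 of the TP-472 libraries (0.0823 to 0.0901). RRM1, the large subunit of the same enzyme, had 0.04 (edgeR adjusted p = 0.884), and −0.13 without vehicle replicate 3. TYMS, which makes thymidylate, was at 185, 103, 174 and 104 CPM in vehicle and 102, 97.5, 95.7 and 126 CPM with TP-472, with overlapping groups and vehicle replicates 1 and 3 well above the rest. TYMS had a log2 fold change of −0.43 (edgeR adjusted p = 0.15), and −0.31 without vehicle replicate 3. TYMS shares 39.1% of its exon bases with ENOSF1 on the opposite strand, whose counts were 38.4% of those of TYMS.

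Of the fork protection genes, TIMELESS fell and TIPIN rose, where 14.9% of all genes tested were lower DEGs and 12.0% higher DEGs. TIMELESS and TIPIN encode partners of a complex that keeps helicase and polymerases together and supports the checkpoint. TIMELESS (ENSG00000111602.12, chromosome 12 from 56416373 to 56449403) was at 116, 102, 141 and 98.2 CPM in vehicle and 64.8, 62.4, 59.0 and 62.3 CPM with TP-472. The TP-472 libraries were all below the lowest vehicle library, and vehicle replicate 3 was the highest. TIMELESS fell to 0.543 of its vehicle level, a log2 fold change of −0.88 (SE 0.128, edgeR adjusted p = 0.00135), and −0.76 without vehicle replicate 3 (edgeR adjusted p = 2.27e-05, with 2.94e-09 to 0.0117 across the single alternatives).

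TIPIN (ENSG00000075131.10, chromosome 15 from 66336206 to 66386746) went the other way, with 18.4, 24.0, 10.6 and 23.3 CPM in vehicle and 30.7, 32.8, 31.6 and 33.1 CPM with TP-472. All TP-472 libraries were above all vehicle libraries, and vehicle replicate 3 was the lowest. The increase was 1.68-fold, with a log2 fold change of 0.75 (SE 0.23, edgeR adjusted p = 0.0324). Without vehicle replicate 3 it was 1.47-fold, with a log2 fold change of 0.55 (edgeR adjusted p = 0.000925, with 3.09e-05 to 0.0777 across the single alternatives). CLSPN (ENSG00000092853.14), claspin, which brings the checkpoint kinase CHK1 to stalled forks, was at 138, 145, 151 and 150.3 CPM in vehicle and 167, 162, 169 and 178 CPM with TP-472. The groups did not overlap, but the log2 fold change of 0.21 (SE 0.0876) did not pass (edgeR adjusted p = 0.0859). It was 0.23 without vehicle replicate 3 (edgeR adjusted p = 0.00939, with 0.00245 to 0.535 across the single alternatives).

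**Figure D2:**
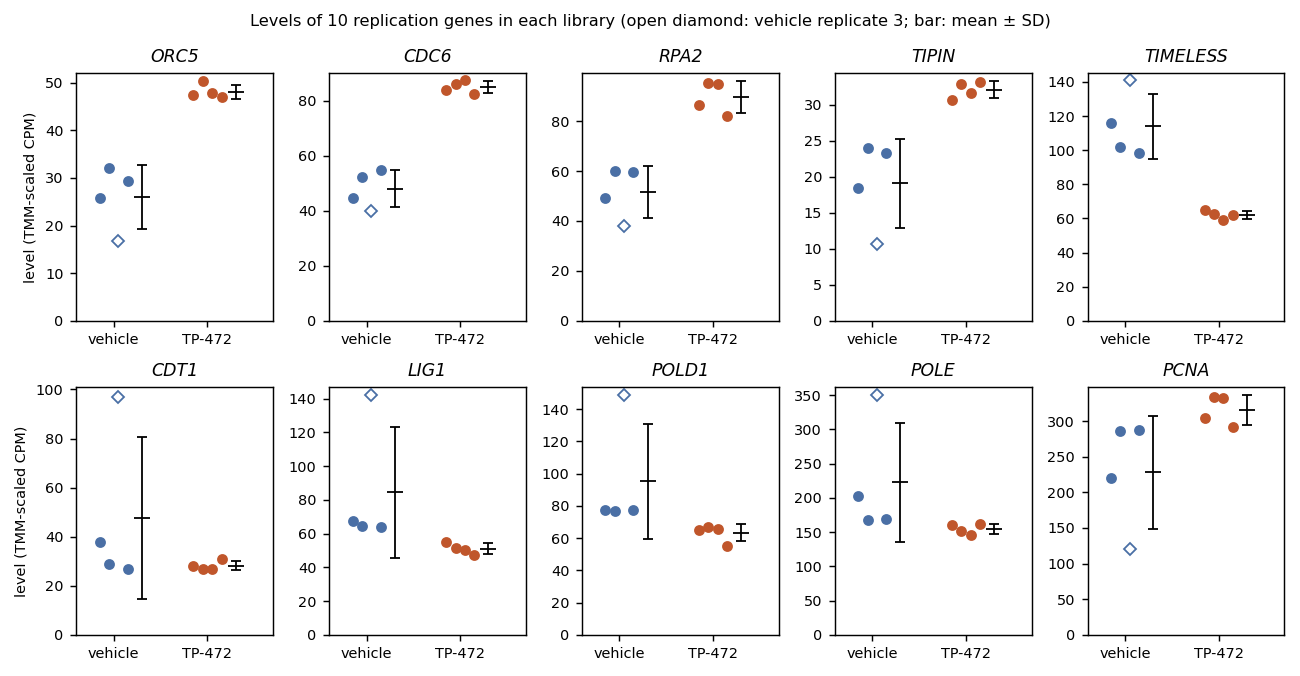
Level in TMM-scaled CPM (y axis, from 0) of 10 of the genes in each vehicle and TP-472 library, with the mean ± SD of the 4 libraries beside each group. In ORC5, CDC6, RPA2, TIPIN and PCNA all TP-472 libraries lie above all vehicle libraries and in TIMELESS below them, and vehicle replicate 3 (open diamond) is the highest library for CDT1 (96.8 CPM), LIG1 (142 CPM), POLD1 (149 CPM) and POLE (351 CPM).

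Because partner subunits changed by different amounts, the ratio of their levels was computed within each library, a quantity that the scaling between libraries does not alter. The pairs were chosen after the values were seen and were given no test. TIMELESS over TIPIN was 6.31, 4.27, 13.3 and 4.22 in vehicle and 2.11, 1.90, 1.87 and 1.88 with TP-472. Per length of exon, the mean ratio went from 3.33 in vehicle to 0.919 with TP-472. RPA1 over RPA2 was 2.99, 2.25, 3.24 and 2.23 in vehicle and 1.26, 1.10, 1.12 and 1.36 with TP-472. ORC3 over ORC5 was 2.42, 2.21, 2.66 and 2.34 in vehicle and 1.19, 1.09, 1.18 and 1.15 with TP-472. POLA2 over POLA1, the catalytic subunit, was 0.896, 0.901, 1.58 and 0.926 in vehicle and 0.641, 0.675, 0.644 and 0.557 with TP-472. In these 4 pairs vehicle replicate 3 had the highest ratio of all libraries. POLE2 over POLE3, subunits of polymerase epsilon, was 0.564, 0.426, 0.356 and 0.433 in vehicle and 0.209, 0.215, 0.221 and 0.224 with TP-472, and here vehicle replicate 3 had the lowest ratio of the vehicle libraries. In all 5 pairs every vehicle library had a higher ratio than every TP-472 library. For TIMELESS over TIPIN and RPA1 over RPA2 this had to follow, since both genes of the pair already separated the groups in opposite directions. The ratios of other pairs were not computed, so the separation in these chosen pairs is a description only.

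**Figure D3:**
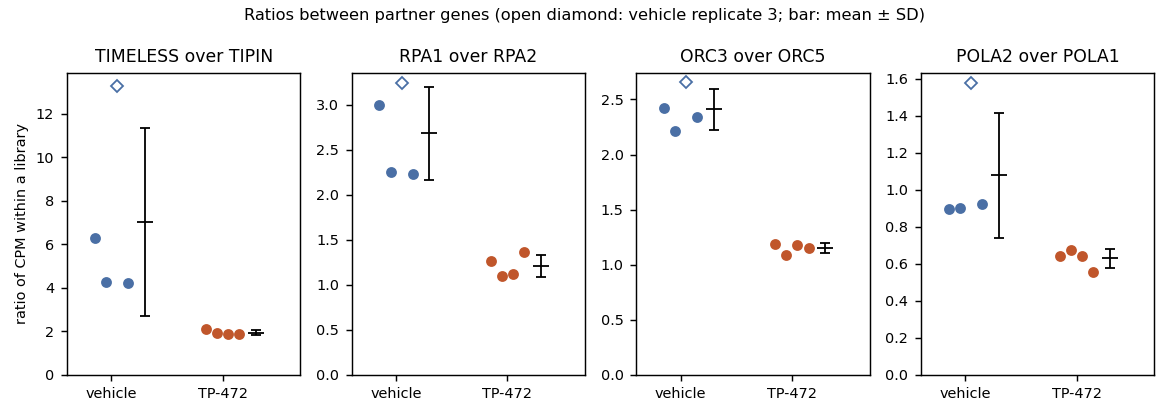
Ratio of the CPM of partner genes within each library (y axis, from 0), for vehicle and TP-472 libraries, with the mean ± SD of 4 libraries per group. The ratios with TP-472 lie below those of all vehicle libraries in each of the 4 pairs drawn, and vehicle replicate 3 (open diamond) has the highest ratio, 13.3 for TIMELESS over TIPIN. The pairs were chosen after the values were seen.

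The replication genes in vehicle replicate 3 were examined on their own. Of the 48 genes, 39 lay outside the range of the other 3 vehicle libraries in this library, against 18 to 20 for each of the other vehicle libraries. Within the TP-472 group this count was 14 to 34 per library, with no gene more than 1.5-fold away from the mean of the others. In vehicle replicate 3, 14 genes were more than 1.5-fold lower than the mean of the other vehicle libraries, the most RPA3 (−1.30 on the log2 scale). There 4 genes were more than 1.5-fold higher, namely CDT1, LIG1, POLD1 and POLE. These 4 genes are described because of their values in this library. CDT1, the loading partner of CDC6, was at 38.0, 28.7, 96.8 and 26.8 CPM in vehicle and 28.2, 26.9, 26.7 and 30.8 CPM with TP-472, so that a single library set its group apart. For CDT1 the log2 fold change was −0.76 (SE 0.383, edgeR adjusted p = 0.147) with all 8 libraries and −0.15 without vehicle replicate 3 (edgeR adjusted p = 0.318, with 0.0751 to 0.809 across the single alternatives), and 0.02 without it and with the GC offset. POLD1, the catalytic subunit of polymerase delta, was at 77.7, 77.1, 149 and 77.4 CPM in vehicle and 65.2, 66.6, 65.8 and 55.3 CPM with TP-472. Its log2 fold change went from −0.59 (edgeR adjusted p = 0.0649) to −0.29 without that library (edgeR adjusted p = 0.00699, with 0.000841 to 0.691 across the single alternatives), and was −0.05 with the GC offset.

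The deviation of vehicle replicate 3 varied with the GC content of the genes. Of the 31 genes with less than 50% GC in their transcripts, 26 were lower in this library than in the other vehicle libraries, with a median difference of −0.53 on the log2 scale. Of the 17 genes with 50% GC or more, 4 were lower and the median was 0.26. Across the 48 genes, which share the libraries and their depth, Pearson's r between GC content and the deviation was 0.809, and across the 13970 tested genes with a known GC content it was 0.76. The corresponding values over the 48 genes were −0.591, −0.731 and −0.697 in vehicle replicates 1, 2 and 4, whose reference includes vehicle replicate 3, and −0.232 to 0.452 in the TP-472 libraries. When the trend with GC content was removed from every library, 7 of the 48 genes changed sign, of which only MCM2 passed the adjusted p-value. The log2 fold changes were then 0.80 for ORC5, 0.75 for CDC6, 0.80 for RPA2, 0.67 for TIPIN and −0.81 for TIMELESS, and that of CDT1 was −0.06 (edgeR adjusted p = 0.729). What set vehicle replicate 3 apart was not tested further.

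**Figure D4:**
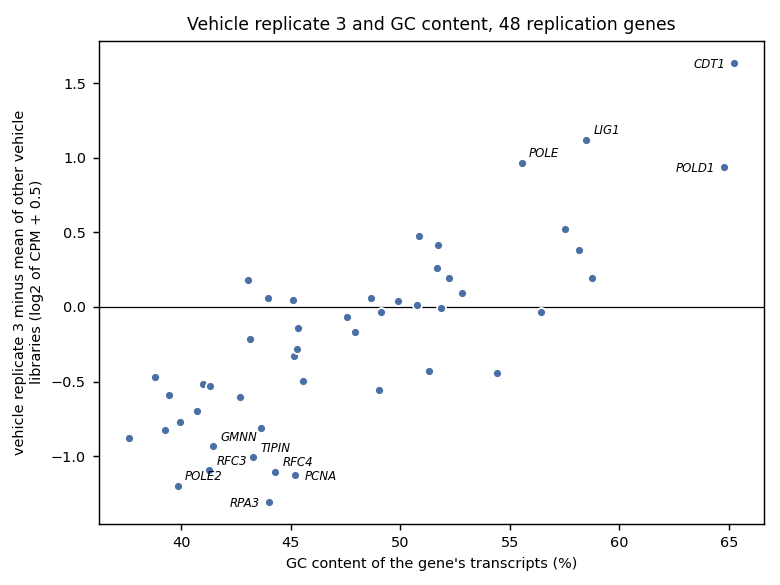
Difference between vehicle replicate 3 and the mean of the other vehicle libraries (y axis, log2 of CPM + 0.5) against the GC content of the transcripts (x axis, percent) for each of the 48 genes. Genes under 50% GC lie mostly below 0 and most genes above 50% lie above it, from −1.30 (RPA3) to 1.64 (CDT1), with r = 0.809.

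Other genes of replication, 47 genes for S-phase kinases, origin firing, further polymerase subunits and checkpoint control, all passed the filter and gave a similar share of DEGs. Of these, 3 were higher and 2 lower (10.6%, against 26.9% of all genes tested). At an adjusted p-value under 0.05 alone, 4 rose and 2 fell (12.8%, against 36.3% of all genes tested), and without vehicle replicate 3, 15 rose and 13 fell (59.6%, against 57.0%). POLE3 and POLE4, the histone-fold subunits of polymerase epsilon, were both higher. POLE3 was at 50.1, 74.6, 37.1 and 76.1 CPM in vehicle and 118, 124, 128 and 106 CPM with TP-472, with no overlap and a log2 fold change of 1.00 (SE 0.22, edgeR adjusted p = 0.00855). For POLE4 the log2 fold change was 0.74 (edgeR adjusted p = 0.00384), and for CCNE1, the cyclin that drives entry into S phase, it was 0.65 (edgeR adjusted p = 0.00388). POLE3 had 0.83, POLE4 0.73 and CCNE1 0.59 without vehicle replicate 3. CCNE1 was under 1.5-fold under limma-voom with quality weights (0.51), and with the GC offset when that library was left out (0.57). The catalytic subunit POLE, at 203, 168, 351 and 169 CPM in vehicle and 161, 152, 146 and 162 CPM with TP-472, and POLE2 had −0.52 (edgeR adjusted p = 0.103) and −0.04 (edgeR adjusted p = 0.919), and −0.21 and −0.26 without vehicle replicate 3. TICRR, which is needed for origin firing (−0.85, edgeR adjusted p = 0.0352), was lower with all 8 libraries. So was DBF4B, a partner of the kinase CDC7 (−0.72, edgeR adjusted p = 0.0389). Neither was a DEG with a replicate block (edgeR adjusted p = 0.0724 for TICRR and 0.0732 for DBF4B). With the GC offset DBF4B was under 1.5-fold (−0.48). Without vehicle replicate 3, LRWD1, CCNE1, POLE3 and POLE4 were higher DEGs and ETAA1 was the lower one, since TICRR (−0.53) and DBF4B (−0.41) no longer reached 1.5-fold.

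For comparison with a later phase of the cycle, 24 mitotic genes were measured in the same way. INCENP (−0.72, edgeR adjusted p = 0.0304) was the 1 DEG among them (4.17%, against 26.9% of all genes tested), and CENPF (−0.53) and NUSAP1 (−0.57) also fell at an adjusted p-value under 0.05 (19.1% of all genes did), while none rose (17.2% of all genes did). INCENP was not a DEG with a replicate block (edgeR adjusted p = 0.0525) or the GC offset (−0.33), and with the GC offset CENPF (−0.68) and NUSAP1 (−0.67) were lower DEGs. The median log2 fold change was −0.12, against 0.17 for the 48 replication genes (−0.16 and 0.06 without vehicle replicate 3), a difference that was not tested. Without vehicle replicate 3, the mitotic DEGs were CDK1 (−0.59) and NUSAP1 (−0.64), both lower, and at an adjusted p-value under 0.05 alone 3 rose and 11 fell (58.3%, against 57.0% of all genes tested). The 24 genes summed to 5772, 6271, 4773 and 6006 CPM in vehicle and 4958, 4903, 5041 and 4757 CPM with TP-472. Vehicle replicate 3 was at the level of the TP-472 libraries here, and the other vehicle libraries were above them. This sum follows its most abundant genes, TOP2A (means of 1149 CPM in vehicle and 853 CPM with TP-472) and CENPF (975 and 673 CPM). With all 8 libraries 8 of the 24 genes had a log2 fold change above 0. The proliferation marker MKI67 ranged widely within the groups, with 945, 552, 1184 and 543 CPM in vehicle and 520.1, 461, 436 and 742 CPM with TP-472.

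**Figure D5:**
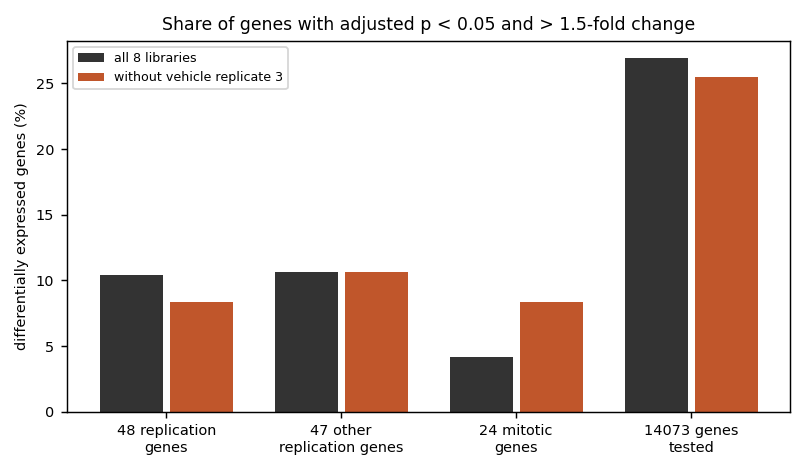
Share of differentially expressed genes (y axis, percent, adjusted p-value under 0.05 and more than 1.5-fold) among the 48 replication genes, 47 other replication genes, 24 mitotic genes and all 14073 genes tested, with all 8 libraries and without vehicle replicate 3. The 48 replication genes had 10.4% and 8.33%, and all genes tested 26.9% and 25.5%. The sets were not matched for level.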

How the data were processed

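Total RNA of SK-UT-1 cells was sequenced in 4 libraries per group. The authors prepared TruSeq libraries (strand-specific, by the methods), estimated transcript abundance with Salmon 1.4.0 and summed it to genes with tximport and GENCODE 34 on GRCh38, so the deposited values are estimated counts, not normalized. Here they were rounded, genes were kept if at least 4 libraries exceeded 1 CPM, and after TMM scaling the groups were compared by edgeR 4.0.16 (R 4.3.3, quasi-likelihood F test), with Benjamini-Hochberg adjustment over 14073 genes. Standard errors are the log2 fold change over the root of F. Exon lengths, GC content (99.3% of the genes tested) and positions are from GENCODE 29, joined by identifier without its version, and promoters from RefSeq. Pseudogenes of 8 members held at most 0.0819% of their parent's counts. Of the 48 genes, 22 share exon bases with another gene, 17 of them on the opposite strand, and among the DEGs only TIPIN does, with a pseudogene of 10 counts.

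Members and lists were chosen with earlier results of these data known. Values per library are given for DEGs and for the gene with the highest level per length of each role, and other genes shown that way were chosen after their values were seen. Alternatives were DESeq2 1.42.0, limma-voom (limma 3.58.1) with quality weights, RLE and total-count scaling, 2 other filters, a GC offset, a replicate block and each library left out, and the same without vehicle replicate 3 was added after seeing the data. Ranges over the single alternatives leave out these added combinations. No library was a copy of another (lowest mean chi-square 12.8). The calculations were tested on simulated data.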

Additional observations from a re-analysis of the deposited data

Results flagged for a closer look

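In 11 of 96 groups of 4 libraries (48 genes in each of the 2 treatments) the highest or lowest library lay so far from the rest that its gap, divided by the range, exceeded Dixon's critical value, where chance gives about 1 in 20 groups. Vehicle replicate 3 accounted for 7 of them. It was the lowest vehicle library for ORC2 (48.1 CPM), POLA1 (43.7 CPM) and RRM2 (248 CPM), and the highest for CDT1 (96.8 CPM), MCM2 (264 CPM), POLD1 (149 CPM) and LIG1 (142 CPM). Vehicle replicate 1 was the lowest for GINS4 (33.6 CPM) and RFC2 (73.6 CPM). Among the TP-472 libraries, replicate 4 was the lowest for POLD1 (55.3 CPM) and the highest for RRM2 (460.4 CPM).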

How the results depend on the processing

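ORC5, CDC6, RPA2 and TIMELESS remained DEGs in the same direction under every alternative run. TIPIN was not a DEG under limma-voom with quality weights (log2 fold change 0.46), nor without vehicle replicate 1, vehicle replicate 3 (0.55) or any 1 of the TP-472 libraries (0.73 to 0.76, adjusted p = 0.0687 to 0.0777 from edgeR). Lower members numbered 2 in place of 1 under DESeq2, no low-count filter and filterByExpr, where LIG1 was added. They also numbered 2 under limma-voom with quality weights, where WDHD1 was added. All DEGs numbered 5575 under DESeq2, 5090 with no low-count filter, 4556 under filterByExpr and 3493 under limma-voom, in place of 3789. WDHD1 also made 2 lower members without vehicle replicate 3 together with limma-voom or no filter. With 1 library left out, higher members numbered 3 to 5 (GMNN was added without vehicle replicate 2) and lower members 1 to 2 (LIG1 was added without vehicle replicate 2 or 4), all DEGs 2690 to 4223, and the members' median log2 fold change was 0.06 to 0.20. That median was 0.06 without vehicle replicate 3, 0.07 under limma-voom, 0.14 with the GC offset and 0.14 with the GC offset and replicate block. With no limit on the fold change, 12 members were higher and 3 lower. With the GC offset 7 members changed sign (MCM2, MCM5, MCM6, CDC45, PRIM1, POLD2 and RRM1), and MCM2 passed the adjusted p-value at 0.24. The log2 fold change of POLD2 reversed to 0.18 with the GC offset and 0.20 with GC offset and block, and FEN1 became a DEG (0.63 and 0.67). The median of all genes tested was 0.128 under DESeq2 and 0.12 with no filter, which test 23471 and 33192 genes, against −0.03. For all genes it was 0.042 with the GC offset and 0.053 with the GC offset and replicate block.

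No pairing by replicate number was seen (correlations of same-numbered deviations −0.0554, 0.116, −0.171 and −0.177). These values cannot exclude a pairing, since the vehicle deviations are taken from a mean that includes vehicle replicate 3. With a replicate block the same 4 higher and 1 lower members were DEGs. There 8 in place of 15 members passed the adjusted p-value alone, as did 3377 in place of 5102 of all genes. With the GC offset 26 members and 7501 of all genes passed it, and under limma-voom with quality weights 32 and 9606. The cause of these shifts was not tested. No member had fewer than 365 counts in any library.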
